A study of Glycine max with 54 samples.

Results

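The interval described here is a stretch of soybean chromosome 13 that lies around Rag2, a locus for resistance to the soybean aphid, and that is known for its many genes of the NBS-LRR class. Its members were taken by identifier alone, as every identifier from GLYMA13G25400 to GLYMA13G26600 in the deposited count files except 2 that were left out, and this gave 92 of 53971 loci. The files pair no identifier with a gene name, and 0 of the 92 members matched any of 59048 soybean genes of RefSeq by identifier, so that no member is given a function and the class name of the interval could not be checked here.

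NBS-LRR proteins are receptors inside plant cells. A nucleotide-binding domain acts as a switch, leucine-rich repeats take part in recognition, and activation sets off defence against a pathogen or a sap-feeding insect. Their genes often stand in tandem clusters of similar copies that differ between cultivars in sequence and number, and many are transcribed at a low level in healthy leaves, so that both the transcript level before attack and the change after attack are of interest.

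Leaf RNA was sequenced from the resistant genotypes P203 (antixenosis, aphids avoid the plant) and P746 (antibiosis, aphids fare badly on it) and from the susceptible genotype Dongnong47. Caged leaf areas of seedlings carried 6 aphids per leaflet (infested) or no aphids (mock) and were taken at 24, 48 and 96 h after infestation (HAI). With 3 replicates in each of 18 groups there were 54 libraries in all. The 3 genotypes are cultivars or lines with their own backgrounds over the whole genome, so that a difference between them in this interval cannot be told apart from the rest of their genetic differences by this design.

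Totals of the estimated counts ran from 16596469 to 34982790 per library, and the interval held 8505 to 37314 of these. Levels are given below as CPM (counts relative to the library total) scaled by the trimmed mean of M-values (TMM, factors 0.561 to 1.44), without a correction for gene length, so that levels of different genes are not compared. Between replicates the counts differed far beyond counting noise (chi-square per gene of at least 24.9 in 54 pairs of libraries), and precision therefore rests on the replicates. The replicates are called biological in the study, but no label ties a replicate number to a plant or day.

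Several libraries went against their labels, or lay between genotypes, in genes outside chromosome 13, and these bear on the results. Among 74 markers chosen on chromosomes 1 to 12 from mock libraries of 24 HAI, the library labelled Dongnong47, infested, 96 HAI, replicate 1 was like Dongnong47 at 5.41%, while the other 17 Dongnong47 libraries were at 82.4% or more and the P203 libraries at 17.6% or less. The library labelled P746, infested, 48 HAI, replicate 3 was like Dongnong47 at 81.1%, while mock P746 libraries of 24 HAI were at 37.8% to 44.6% and mock P746 libraries of 48 and 96 HAI at 0% to 6.76%. Those of P746, infested, 96 HAI, replicates 2 and 3 were at 35.1% and 24.3%, the first near the mock P746 libraries of 24 HAI. Among 71 markers that separated P203 and P746 in mock libraries of 24 HAI, the 6 mock libraries labelled P746 of 48 and 96 HAI were like P203 at 91.5% to 98.6%, the infested libraries labelled P746 of 24 HAI at 98.6%, 1.41% and 56.3%, those of 48 HAI at 94.4%, 91.5% and 59.2%, and those of 96 HAI at 95.8%, 76.1% and 76.1%. Of the infested P746 libraries, replicate 2 of 24 HAI alone was thus at the level of the mock P746 libraries of 24 HAI from which these markers were chosen. In the tests reported P746 at 24 HAI was therefore not pooled with P746 at 48 and 96 HAI, while levels over all 9 mock or infested libraries labelled P746 are descriptions of a mixed set. Genotype fits in infested libraries are given with and without libraries that stood apart. The mock P746 fits at 48 and 96 HAI, the infestation fits of P746 and its interactions hold doubtful libraries throughout and have no such refit. Leaf identity was not checked, since marker genes could not be matched to identifiers.

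Most of the interval was transcribed in every library. Of the 92 members, 58 had at least 1 count in all 54 libraries, 9 had a value in fewer than 10 libraries, and 68 to 80 were listed in any 1 library. A filter on low counts left 66 members for the test of mock P203 against mock Dongnong47, and 18 members passed it in no comparison. A member can pass through the group in which it is high, so counts over tested members describe these members only.

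Summed over the interval, mock libraries held 682 ± 93.3 CPM in P203, 717 ± 108 CPM in P746 and 671 ± 59.8 CPM in Dongnong47 (mean ± SD, n = 9 each). Infested libraries held 717 ± 80.8 CPM in P203, 724 ± 134 CPM in P746 and 692 ± 54.4 CPM in Dongnong47. The means lay within 1 SD of each other in both treatments. The 8 members with the highest mean CPM in mock libraries, an order that also reflects gene length, were looked at for a difference between genotypes, and 7 had close medians and overlapping ranges in the 3 genotypes. GLYMA13G26150 had 28.0, 52.0 and 79.6 CPM in P203 (lowest, median and highest of 9), 27.8, 59.7 and 82.8 CPM in P746, and 31.0, 60.3 and 75.5 CPM in Dongnong47. GLYMA13G25420, GLYMA13G25690, GLYMA13G25870, GLYMA13G26170, GLYMA13G26220 and GLYMA13G26460 likewise overlapped between genotypes and were not called in any comparison of mock genotypes.

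The remaining one, GLYMA13G25620, spread widely within every genotype. It had 5.98, 34.3 and 97.4 CPM in mock P203 (lowest, median and highest of 9), 12.3, 37.0 and 126 CPM in mock P746, and 0.52, 3.76 and 55.3 CPM in mock Dongnong47. The medians of both resistant genotypes were higher, but the ranges overlapped. The log2 fold change of P203 over Dongnong47 was 3.0 ± 0.87 (SE) with an adjusted p of 0.0842 from edgeR, while DESeq2 gave 3.02 with an adjusted p of 0.000717.

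To find constitutive differences along the interval, mock libraries of P203 were first compared with those of Dongnong47 over the 3 time points (9 against 9 libraries). Members were called at an adjusted p under 0.05 from edgeR over all loci tested and a change of at least 1 on the log2 scale in either direction. In P203, 8 members were higher (all loci 1.27%) and 5 were lower (all loci 0.982%), 13 of 66 tested (19.7%), against 2.25% of all 35838 loci tested. In the flanking intervals of similar size 3 of 79 and 2 of 70 tested loci were called (3.8% and 2.86%), and on the rest of chromosome 13 it was 1.79%. An unadjusted p under 0.05 was found for 25 members (37.9%), against 15.5% of all loci tested. The median log2 fold change was 0.08 over the members and 0.00 over all loci tested, and the median of its absolute value was 0.36 and 0.32.

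**Figure D1:**
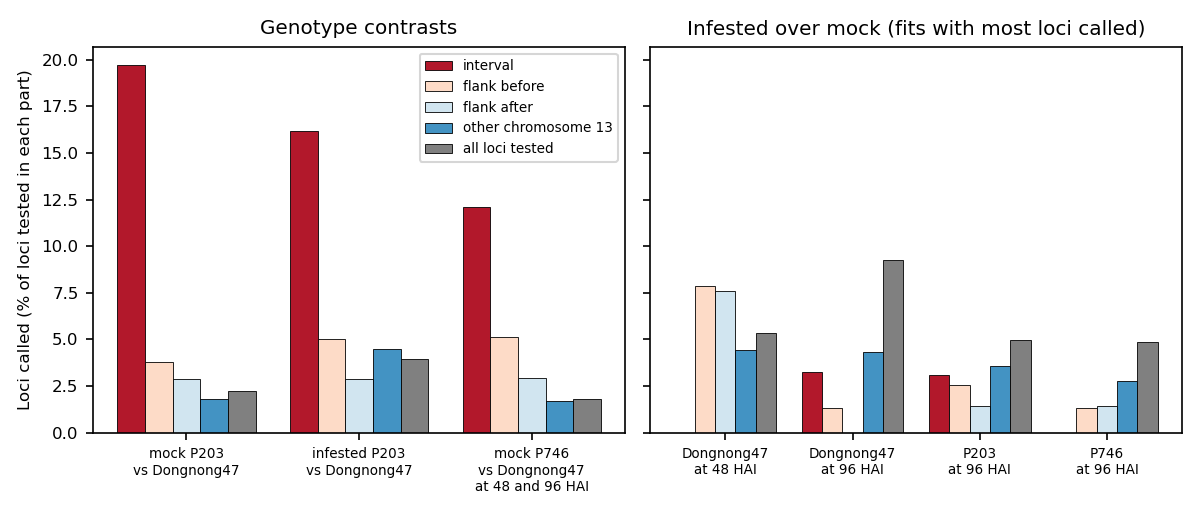
Share of tested loci that were called (% of the loci tested in each set, bars from 0) in the interval, its flanking intervals, the rest of chromosome 13 and all loci, for genotype contrasts (left) and for infested over mock (right, the comparisons with most loci called). The interval reaches 19.7% for mock P203 against Dongnong47 where all loci are at 2.25%, and lies at or under 3.23% for infestation.

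The calls in P203 were also read in the order of the identifiers. With the fold threshold set aside, 15 members had an adjusted p under 0.05, 7 of them lower. The first and last lower ones were GLYMA13G25920 and GLYMA13G26310, members 43 and 75 in order. These 2 were taken as the ends of a stretch, so that all lower ones lie in it by its definition. That stretch holds 33 members, 23 of them tested, and only 2 of the 8 higher members, GLYMA13G25930 and GLYMA13G26230. The other 6 higher members lay outside it, with GLYMA13G25600, GLYMA13G25780 and GLYMA13G25786 before it and GLYMA13G26450, GLYMA13G26540 and GLYMA13G26591 after it. This order was noticed in the values and was not tested.

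**Figure D2:**
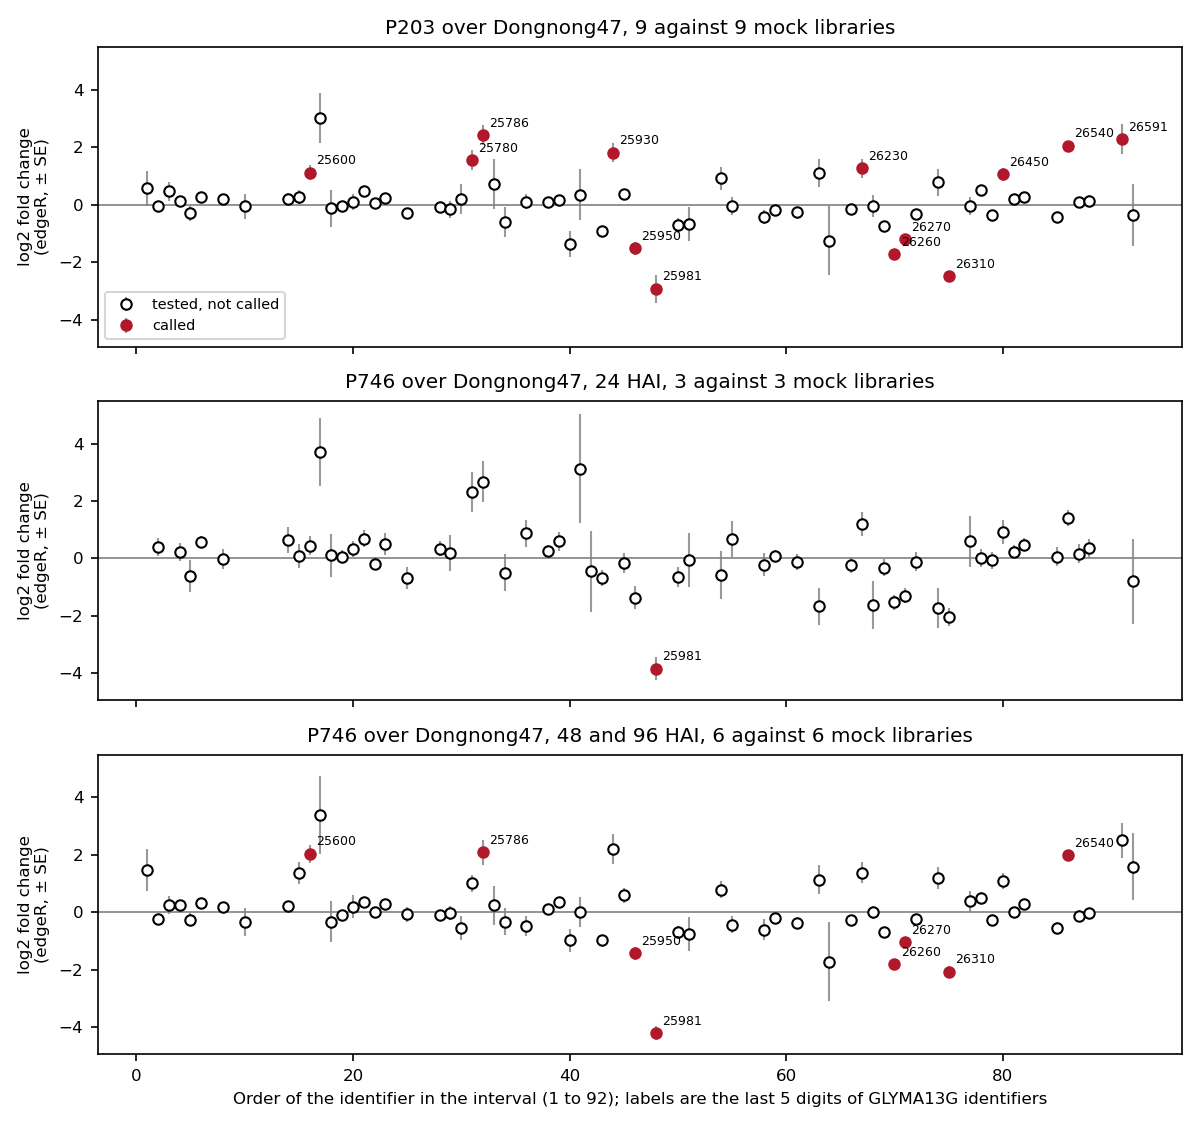
Log2 fold change ± SE (edgeR) of each tested member in order of identifier (1 to 92) for P203 over Dongnong47 (top, 9 against 9 mock libraries), P746 over Dongnong47 at 24 HAI (middle, 3 against 3) and P746 over Dongnong47 at 48 and 96 HAI (bottom, 6 against 6). Filled points are called, 13 at the top, 1 in the middle and 8 at the bottom. The lower ones stand between positions 43 and 75, ends that were themselves set by lower members in P203.

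The 5 members called lower in P203 were GLYMA13G25950, GLYMA13G25981, GLYMA13G26260, GLYMA13G26270 and GLYMA13G26310. GLYMA13G26310 had 1.47, 2.91 and 3.8 CPM in mock P203 (lowest, median and highest of 9) and 9.86, 15 and 28 CPM in mock Dongnong47. Every P203 library was below every Dongnong47 library. The log2 fold change was -2.49 ± 0.17 (SE, adjusted p = 2.79e-07, edgeR), and at 24, 48 and 96 HAI alone it was -2.36, -2.72 and -2.44.

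GLYMA13G26260 and GLYMA13G26270 stand next to each other in the files and were lower together. GLYMA13G26260 had 2.41, 3.22 and 4.35 CPM in mock P203 and 7.93, 11 and 13.3 CPM in mock Dongnong47, a log2 fold change of -1.72 ± 0.16 (SE, adjusted p = 6.43e-06, edgeR). GLYMA13G26270 had 8.64, 10.7 and 15.9 CPM in mock P203 and 22, 25 and 32.4 CPM in mock Dongnong47, a log2 fold change of -1.20 ± 0.14 (adjusted p = 4.11e-05, edgeR). The groups did not overlap for either member on the TMM scale. GLYMA13G26250, the member before them, had an adjusted p of 0.0266 at a log2 fold change of -0.73, under the fold threshold, and GLYMA13G26280, the member after them, was not called (-0.34, adjusted p = 0.276, edgeR).

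GLYMA13G25950 and GLYMA13G25981 are the tested members next to one of the identifiers left out. GLYMA13G25950 had 2.19, 3.12 and 4.16 CPM in mock P203 and 4.37, 8.71 and 14.7 CPM in mock Dongnong47, with a log2 fold change of -1.52 ± 0.22 (SE, adjusted p = 0.000536, edgeR). Its groups were separate, though only just. GLYMA13G25981 had 0.337, 0.664 and 4.48 CPM in mock P203 and 3.44, 6.43 and 17.6 CPM in mock Dongnong47, the largest fall in P203 among the members called (-2.92 ± 0.49, adjusted p = 0.00198, edgeR). Its groups overlapped through 1 P203 library of 96 HAI, replicate 3, and the log2 fold change was -2.90, -4.21 and -1.80 at 24, 48 and 96 HAI alone.

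Of the 8 members called higher in P203, GLYMA13G26540 had the smallest error. It had 11.1, 16.5 and 27.9 CPM in mock P203 (lowest, median and highest of 9) and 3.14, 3.97 and 4.9 CPM in mock Dongnong47. All P203 libraries were above all Dongnong47 libraries, and the log2 fold change was 2.05 ± 0.12 (SE, adjusted p = 3.66e-08, edgeR). At single time points it was 1.79, 2.20 and 2.11 at 24, 48 and 96 HAI.

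GLYMA13G25786 had 2.08, 4.03 and 5.89 CPM in mock P203 and 0.103, 0.582 and 1.93 CPM in mock Dongnong47. The log2 fold change was 2.42 ± 0.35 (SE, adjusted p = 0.000499, edgeR). The gap narrowed at 96 HAI, where the 3 Dongnong47 libraries were the highest of that genotype and the log2 fold change alone was 1.26, against 2.77 at 24 HAI and 3.28 at 48 HAI. The change of this difference with time was not tested. GLYMA13G25780 precedes GLYMA13G25786 in the files and was also higher, with 2.46, 6.9 and 11.9 CPM in mock P203 and 0.378, 1.55 and 6.85 CPM in mock Dongnong47 (1.56 ± 0.36, adjusted p = 0.0236, edgeR), with ranges that overlapped.

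The other calls were of low or moderate level and overlapped between genotypes.
GLYMA13G25600 had a median of 18.6 CPM in mock P203 and 9.32 CPM in mock Dongnong47 (log2 fold change 1.12 ± 0.25, adjusted p = 0.0211, edgeR). GLYMA13G26450 had a median of 3.81 CPM in mock P203 and 1.89 CPM in mock Dongnong47 (1.07 ± 0.23, adjusted p = 0.0138). GLYMA13G26230 had a median of 2.73 CPM in mock P203 and 1.34 CPM in mock Dongnong47 (1.26 ± 0.32, adjusted p = 0.0439), and this call was lost in 20 of 28 alternatives. Under 2 CPM in most libraries were GLYMA13G25930, with a median of 0.642 CPM in mock P203 and 0.155 CPM in mock Dongnong47 (1.81 ± 0.33, adjusted p = 0.00406), and GLYMA13G26591, with 1.1 CPM in mock P203 and 0.203 CPM in mock Dongnong47 (2.29 ± 0.51, adjusted p = 0.0192).

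How many members had groups that did not overlap depended on the scaling of the libraries. On the TMM scale it was 6 of 66 members (9.09%, against 0.82% of all loci tested), namely GLYMA13G25786, GLYMA13G25950, GLYMA13G26260, GLYMA13G26270, GLYMA13G26310 and GLYMA13G26540. With CPM of the library total it was 3 (0.684% of all loci), namely GLYMA13G26260, GLYMA13G26310 and GLYMA13G26540, and with CPM of the total of chromosomes 1 to 13 it was 4 (0.787%), these 3 and GLYMA13G26270. Both other scales were added after seeing the data. All 13 calls kept their direction under every alternative, time points alone included, but these alternatives refit all or part of the same libraries and are not independent support. When 24, 48 and 96 HAI were fitted alone with 3 against 3 libraries, 0, 7 and 2 members were called (all loci 0.236%, 3.39% and 0.594%).

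**Figure D3:**
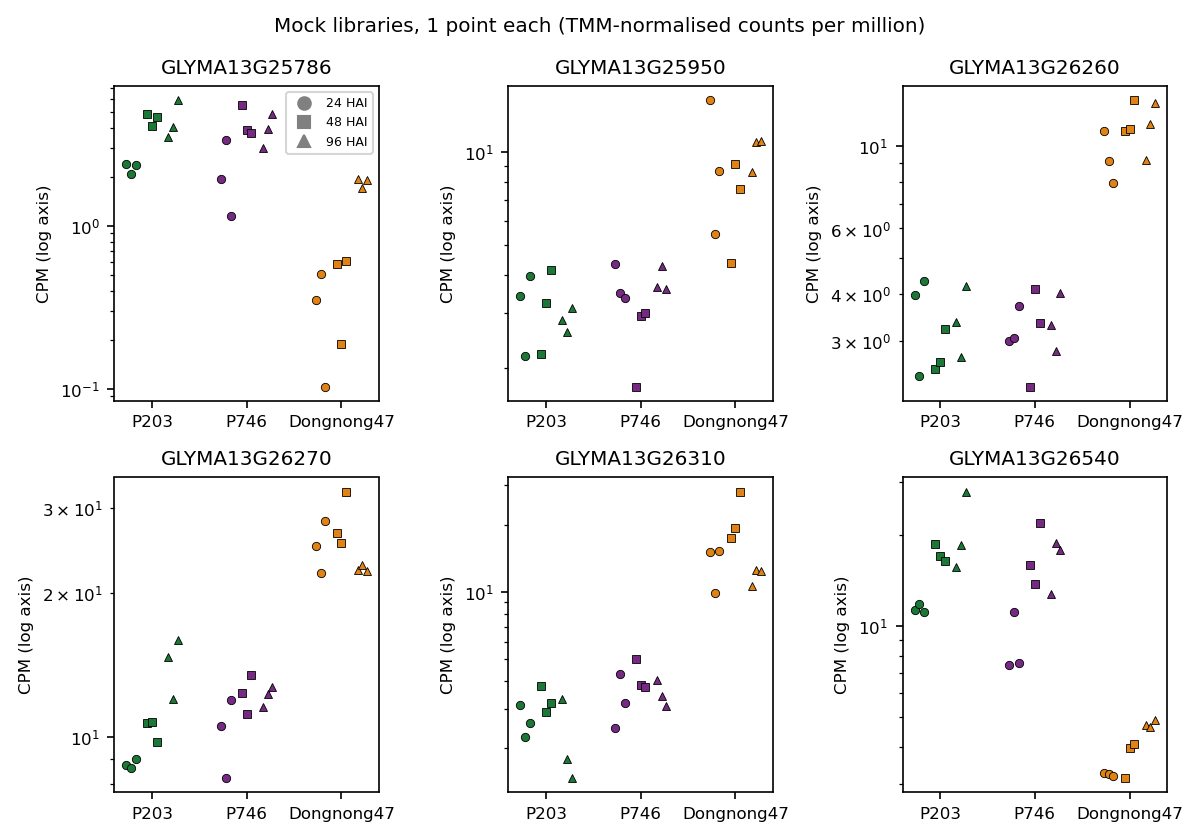
CPM (TMM-scaled, log axis) in each mock library of P203, P746 and Dongnong47 for 6 members, with 1 point per library and the time point as its shape. For each of the 6, the 9 P203 points lie wholly above or wholly below the 9 Dongnong47 points, and GLYMA13G25786 in Dongnong47 is highest at 96 HAI.

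The members called lower had values that were not whole numbers in nearly all libraries, as estimated counts have where reads are divided between similar sequences. All 5 had such values in over 90% of the libraries that listed them, against 1 of the 8 members called higher, 21 of 66 members tested (31.8%) and 10.3% of all loci tested. In the flanking intervals the share was 13.9% and 10%. The members called higher were not free of such values. The median percentage of libraries with them was 63.5% over the members called higher and 96.3% over those called lower. It was 27.8% over members tested and not called, and 5.26% over all loci tested. Levels of genes that share reads with similar copies are uncertain, and the part of read assignment in the differences between genotypes was not tested. GLYMA13G26230 and GLYMA13G26450 had whole numbers in all libraries.

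P746 was set against the same Dongnong47 mock libraries, so that its comparisons are not independent of those above, and its values are given beside them. At 24 HAI (3 against 3 libraries) 1 of 58 members was called (1.72%, all loci 0.415%), and 14 members (24.1%) had an unadjusted p under 0.05, against 8.1% of all loci. This member was GLYMA13G25981, with 0.314, 0.272 and 0.298 CPM in mock P746 and 3.44, 5.29 and 4.02 CPM in mock Dongnong47. The groups were far apart, with a log2 fold change of -3.83 ± 0.41 (SE, adjusted p = 0.0346, edgeR). Groups that did not overlap were common with 3 against 3 libraries, at 17 of 58 members (29.3%) and 16.4% of all loci tested. In the same fit GLYMA13G26310 reached -2.03 with an adjusted p of 0.076. The call of GLYMA13G25981 was lost without any 1 of the 6 libraries, and DESeq2 called 7 members (9.86% of those with an adjusted p, all loci 2.46%).

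At 48 and 96 HAI (6 against 6 libraries, the 6 labelled P746 being those with P203-like markers), 8 of 66 members were called (12.1%, all loci 1.82%), 3 higher (all loci 0.943%) and 5 lower (all loci 0.873%) in P746. On the totals of chromosomes 1 to 13 the split was 5 higher and 4 lower, since this scaling moved the median of all loci by 0.20 on the log2 scale. GLYMA13G25981 had 0.271, 0.476 and 0.607 CPM in mock P746 (lowest, median and highest of 6) and 6.24, 7.03 and 17.6 CPM in mock Dongnong47, the largest difference (-4.22 ± 0.25, adjusted p = 2.9e-05, edgeR). The groups did not overlap. The other lower members were GLYMA13G25950 (-1.43), GLYMA13G26260 (-1.80), GLYMA13G26270 (-1.05) and GLYMA13G26310 (-2.07), and the higher ones were GLYMA13G25600 (2.04), GLYMA13G25786 (2.09) and GLYMA13G26540 (1.99). The call of GLYMA13G25786 was lost in 10 of 20 alternatives, over which its log2 fold change ran from 1.09 to 3.25, while those of GLYMA13G25981, GLYMA13G26310 and GLYMA13G26540 were lost in 0 of 20. Groups without overlap were found for 10 of 66 members (15.2%, all loci 2.22%).

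Mock libraries of P746 and P203 were then compared directly. With edgeR 0 of 56 members were called at 24 HAI (all loci 0.185%) and 0 of 66 at 48 and 96 HAI (all loci 0.00292%), where 1 and 2 members had an unadjusted p under 0.05 (8.3% and 3.48% of all loci) and DESeq2 called 1 and 0. The member with the low p at 24 HAI was GLYMA13G26190, with a median of 2.3 CPM in mock P746 and 6.17 CPM in mock P203 (log2 fold change -1.53 ± 0.32, adjusted p = 0.233, edgeR). At 48 and 96 HAI they were GLYMA13G25590 (1.08 ± 0.30) and GLYMA13G26310 (0.53 ± 0.22, both adjusted p = 1). A missed threshold does not show equal levels, and at 48 and 96 HAI the labels of P746 were in doubt.

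Beside the identifiers left out, GLYMA13G26010 and GLYMA13G26030 were tested and not called in mock libraries. GLYMA13G26010 had a median of 4.27 CPM in mock P203, 5.34 CPM in mock P746 and 7.22 CPM in mock Dongnong47 (P203 over Dongnong47 -0.72 ± 0.26, adjusted p = 0.186, edgeR). GLYMA13G26030 had 2.92 CPM in mock P203, 2.31 CPM in mock P746 and 5.54 CPM in mock Dongnong47 (-0.68 ± 0.59, adjusted p = 0.623), with wide and overlapping ranges. GLYMA13G25960 was listed with counts in 2 libraries only, with 4 and 1 counts.

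Of the 26 members that did not pass the filter in this comparison, 2 showed counts almost only in Dongnong47. They were singled out after their values were seen, as members with counts in at least 12 Dongnong47 libraries and in at most 3 of each other genotype. How many of all loci meet this rule was not counted, so the pattern is not shown to be particular to the interval. GLYMA13G25990 had counts in 0 of 18 P203 libraries, 3 of 18 P746 libraries and 16 of 18 Dongnong47 libraries, with 0, 9 and 107 counts in all. Of the 9 counts in P746, 7 were in the infested library of 48 HAI, replicate 3, whose markers were like Dongnong47, and 1 of the 2 Dongnong47 libraries without a count was the infested one of 96 HAI, replicate 1, whose markers were not. Over the 9 mock libraries of each genotype P203 had 0 counts of GLYMA13G25990 and Dongnong47 had 46. The pooled level in Dongnong47 was 15.7-fold that of a floor of 3 counts over the P203 group. This ratio holds neither the error of the Dongnong47 counts nor the spread between replicates, so it is not a lower limit.

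GLYMA13G26320 had counts in 1 of 18 P203 libraries, 2 of 18 P746 libraries and 16 of 18 Dongnong47 libraries, with 1, 3 and 70 counts in all. It follows GLYMA13G26310, a member called lower in P203, in the files. Since the members were chosen for this pattern, no test of it is given. Both are near the limit of detection, with at most 15 and 13 counts in any library.

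A further 2 of the 26, also singled out after their values were seen, were high in the same infested libraries of P746. Loci elsewhere with such a pattern were not counted either. GLYMA13G25470 had 20.5, 0.43 and 8.12 CPM (822, 10 and 278 counts) in infested P746 and 0.105, 3.59 and 0.0426 CPM in mock P746 at 24 HAI (log2 fold change 3.05 ± 1.91, SE, adjusted p = 0.595, edgeR). GLYMA13G25900 had 13.2, 0.43 and 6.11 CPM (527, 10 and 209 counts) in infested P746 and 0.262, 0 and 0.639 CPM in mock P746 (4.40 ± 1.61, adjusted p = 0.435). Replicates 1 and 3, the high ones for both members, are the infested libraries of 24 HAI with other or mixed markers, and neither difference passed the test.

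The same genotype contrast was taken in infested libraries, which share none with the mock fit. Of 68 members tested, 11 were called in infested P203 against Dongnong47 (16.2%, all loci 3.93%), 5 higher (all loci 2.55%) and 6 lower (all loci 1.38%). Of these, 9 were also called in mock libraries, which is 9 of 13 mock calls and 9 of 11 infested calls, and all 13 mock calls had the same direction. The like shares over all loci were not counted, so this recurrence is not shown to be particular to the interval. The 2 calls found in infested libraries alone were GLYMA13G25620 (2.98 ± 0.67, adjusted p = 0.0205, edgeR) and GLYMA13G26010 (-1.05 ± 0.24, adjusted p = 0.0208). Both depended on the settings, and the call was lost in 4 of 7 alternatives for GLYMA13G25620 (log2 fold change 2.40 to 3.77) and in 5 of 7 for GLYMA13G26010 (-1.74 to -0.53). Whether the contrast differed between treatments is given by the interactions below.

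Groups did not separate for any member in these infested libraries (0 of 68, all loci 0.265%), and 1 library stood against the others. GLYMA13G26310 had 1.47, 3.0 and 4.42 CPM in infested P203 (lowest, median and highest of 9) and 0.749, 18 and 24.5 CPM in infested Dongnong47. GLYMA13G26540 had 8.42, 22.3 and 28.4 CPM in infested P203 and 2.02, 5.79 and 23 CPM in infested Dongnong47. The 0.749 and 23 CPM both belonged to the Dongnong47 library of 96 HAI, replicate 1, which was at the level of P203 in both members. Without that library 13 members were called (19.1%, all loci 3.95%), 11 of them shared with the mock calls, a share again not counted over all loci.

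Each library was set against the mock medians of P203 and Dongnong47 in the 6 members whose mock groups did not overlap. The mock libraries of P203 and Dongnong47 served to choose the members and to set the medians, so their own placing was fixed beforehand. Infested libraries labelled P203 were nearer to P203 in 5 or 6 of the 6 members. Infested Dongnong47 libraries were so in 0 or 1, except that of 96 HAI, replicate 1, which was nearer to P203 in 6 of 6. Mock libraries labelled P746 were nearer to P203 in 4 to 6 members. The P746 library of 48 HAI, infested, replicate 3, was nearer to P203 in 1 of 6, and in GLYMA13G25981 it had 12.5 CPM where replicates 1 and 2 had 0.448 and 0.349 CPM. In the 74 markers, too, these were the Dongnong47 library least like Dongnong47 and the P746 library most like it. These 6 members separate P203 from Dongnong47, and P746 of 24 HAI was near P203 in most of them, so that an exchange of P203 and P746 could not be seen here.

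**Figure D4:**
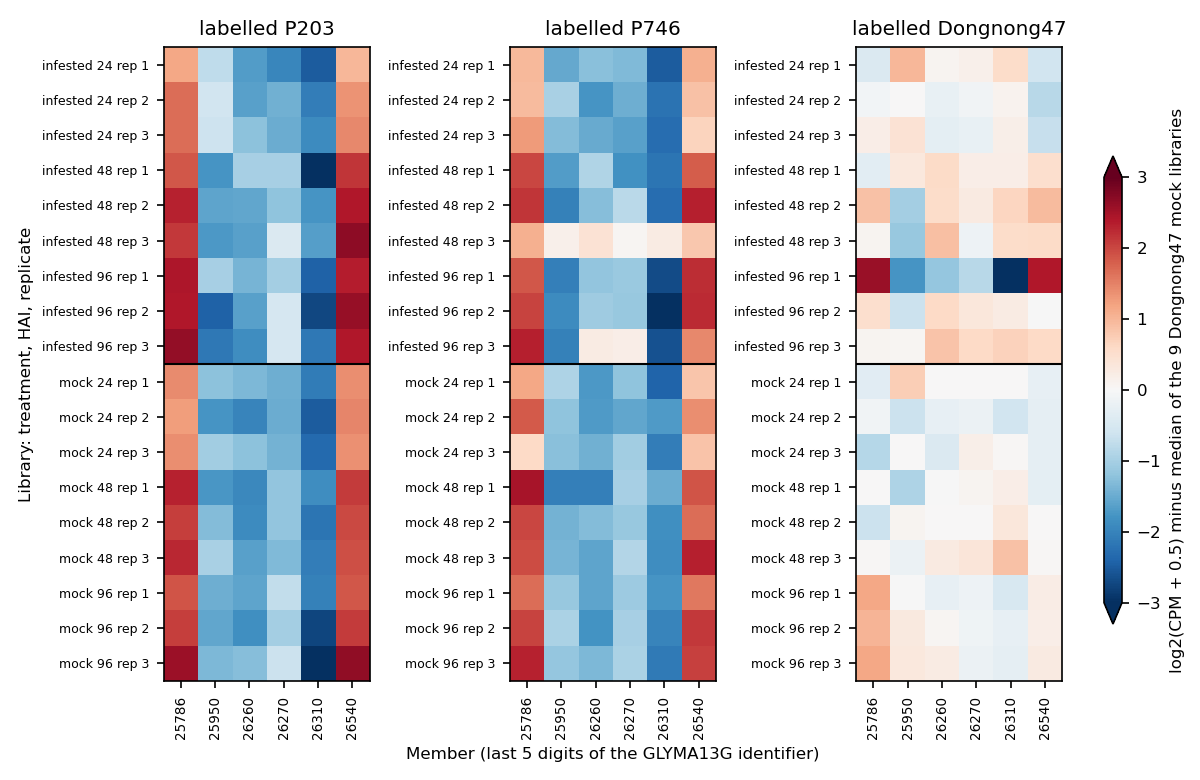
Each of the 54 libraries (rows, infested above mock) in 6 members (columns) as log2(CPM + 0.5) minus the median of the 9 Dongnong47 mock libraries, with colours held at the ends beyond 3. The Dongnong47 library infested at 96 HAI, replicate 1, carries the colours of the P203 panel in all 6 members, and the P746 library infested at 48 HAI, replicate 3, those of Dongnong47 in 5 of 6.

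Infested libraries of P746 were also compared with those of Dongnong47. At 24 HAI 2 of 63 members were called against Dongnong47 (3.17%, all loci 0.161%), GLYMA13G25981 (-3.99 ± 0.36, adjusted p = 0.0404, edgeR) and GLYMA13G26310 (-2.86 ± 0.23, adjusted p = 0.0385). GLYMA13G26310 had 2.27, 2.69 and 2.84 CPM in infested P746 (lowest, median and highest of 3) and 16.2, 17.1 and 22.3 CPM in infested Dongnong47, without overlap. With 3 against 3 libraries this was common, at 27 of 63 members (42.9%) and 23.7% of all loci tested. When the 2 libraries with other or mixed markers were left out, 1 P746 library was set against 3 of Dongnong47, assumed to vary like them, and the log2 fold changes were -3.56 and -2.68. That fit called 0% of all loci, so the loss of both calls there says nothing of these members. Neither was called with the replicate number as a block (0 members and 0% of all loci called). The block is apt here, since the replicates deviated together (correlations 0.12, 0.208 and 0.261), but the loss is not particular to these members. DESeq2 called 13 members (18.1% of those with an adjusted p, all loci 5.96%). At 48 and 96 HAI 0 of 64 members were called (all loci 0%), while 11 had an unadjusted p under 0.05 (8.04% of all loci) and DESeq2 called 0. Without 4 libraries (Dongnong47 of 96 HAI, replicate 1, and P746 of 48 HAI, replicate 3, and of 96 HAI, replicates 2 and 3) 5 members were called (7.25%, all loci 0.577%). The 3 P746 libraries kept were like P203 at 94.4%, 91.5% and 95.8% of the 71 markers, so this fit is not one of libraries free of doubt. The members were GLYMA13G25981, GLYMA13G26250, GLYMA13G26260, GLYMA13G26310 and GLYMA13G26591.

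The response to infestation was then taken within each genotype and time point (3 infested against 3 mock libraries). With edgeR, 2 of 64 members were called in P203 at 96 HAI (3.12%, all loci 4.98%) and 2 of 62 in Dongnong47 at 96 HAI (3.23%, all loci 9.26%), all 4 higher in infested leaves (higher among all loci, 2.76% in P203 and 6.85% in Dongnong47). In the other 7 comparisons 0 of 57 to 65 members were called. The shares of all loci called there were 0% in P203 at 24 HAI, 0.0655% in P203 at 48 HAI, 0% in P746 at 24 HAI and at 48 HAI, 4.88% in P746 at 96 HAI, 1% in Dongnong47 at 24 HAI and 5.36% in Dongnong47 at 48 HAI. In the same order, 1, 2, 6, 1, 11, 2 and 6 members had an unadjusted p under 0.05 (2.87%, 5.51%, 10.8%, 6.69%, 20.3%, 8.3% and 26.5% of all loci), and DESeq2 called 0, 0, 5, 0, 11, 1 and 2 members. With edgeR the share of members called thus lay below that of all loci in the 4 comparisons with most calls. On loci of chromosomes 1 to 13 alone this was reversed in P203 at 96 HAI (9.38% of members, all loci 7.13%). Against Dongnong47 the share of members lay above that of all loci for mock P203, infested P203 and mock P746 at 48 and 96 HAI. For P746 at 24 HAI it rested on 1 call in mock and 2 in infested libraries, too few to compare shares. Infested P746 at 48 and 96 HAI had 0 calls (all loci 0%).

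With DESeq2 the picture was less uniform. As a share of those with an adjusted p, it called 12.2% of members and 18.3% of all loci in P203 at 96 HAI, 11.2% and 20.9% in Dongnong47 at 96 HAI and 2.82% and 11.7% in Dongnong47 at 48 HAI. In P746 the 2 shares were close, at 14.9% of members and 14.6% of all loci at 96 HAI and 7.25% and 6.31% at 24 HAI. These P746 contrasts mix libraries of different markers, since in the 71 markers the infested libraries of 24 HAI were like P203 at 1.41% to 98.6% where the mock ones were at 0%, and those of 96 HAI at 76.1% to 95.8% where the mock ones were at 95.8% to 98.6%, and treatment cannot be told apart from this.

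**Figure D5:**
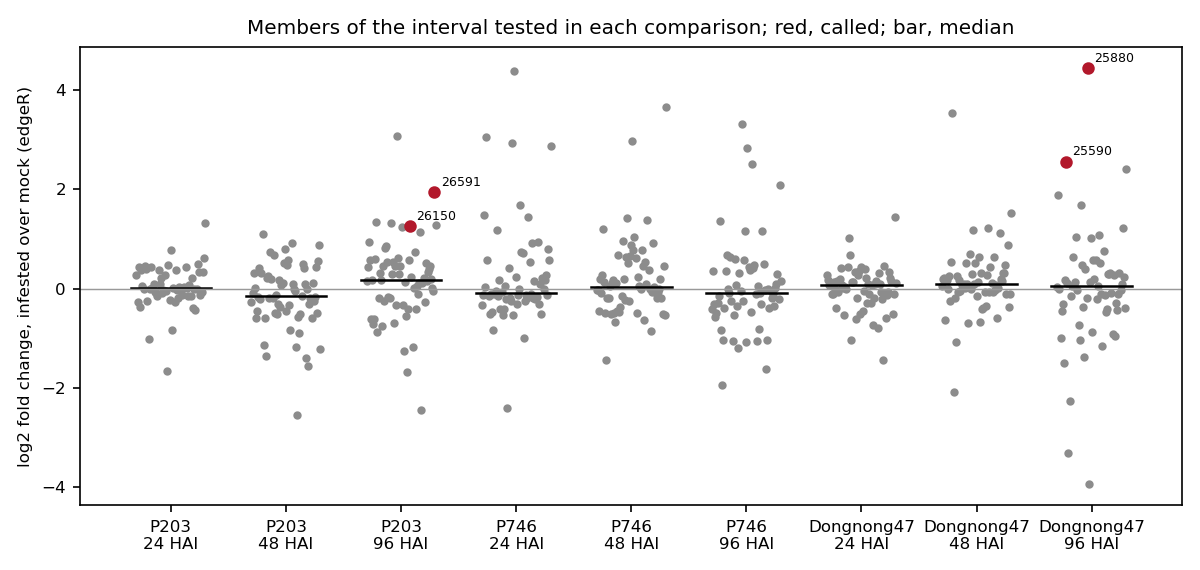
Log2 fold change of infested over mock (edgeR) for every tested member in each genotype and time point, 3 against 3 libraries, with called members filled and labelled and the median as a bar. Medians lie between -0.15 and 0.18, and 4 members are called, all at 96 HAI.

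In P203 at 96 HAI the called members were GLYMA13G26150 and GLYMA13G26591. GLYMA13G26150 had 65.1, 74.3 and 76.9 CPM in infested P203 and 29.6, 28.0 and 31.2 CPM in mock P203. The infested libraries were all higher, with a log2 fold change of 1.26 ± 0.19 (SE, adjusted p = 0.0337, edgeR). Separation of 3 against 3 libraries was common in this comparison. In either direction it was found for 35.3% of all loci tested and 34.4% of members tested. In P746 this member had 47.5, 37.6 and 43.9 CPM in infested and 34.5, 27.8 and 31.6 CPM in mock libraries of 96 HAI (0.47, adjusted p = 0.25), and in Dongnong47 the difference was 0.51 (adjusted p = 0.413). Both directions depended on the scaling. On CPM of the library total they turned, with 35.7, 41.1 and 42.8 CPM in infested and 42.8, 37.3 and 45.5 CPM in mock P746, and 35.2, 44.6 and 52.0 CPM in infested and 42.7, 56.3 and 54.6 CPM in mock Dongnong47. On CPM of the chromosome 1 to 13 total P746 had 52.4, 54 and 62.1 CPM in infested and 52.2, 43.8 and 52.4 CPM in mock libraries, so that the groups met at 52.4 CPM. Dongnong47 had 51.1, 61.2 and 73.4 CPM in infested and 49.8, 67.7 and 61.3 CPM in mock libraries on that scale. Its ranges overlapped and its medians, 61.2 and 61.3 CPM, were nearly equal. In P203 the infested libraries were higher on all 3 scales, on CPM of the library total with 81.6, 94.9 and 99.7 CPM in infested and 34.7, 38.2 and 26.8 CPM in mock libraries. The interaction with genotype was 0.75 ± 0.40 for P203 against Dongnong47 (adjusted p = 0.406, edgeR), so a difference in response was not shown.

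GLYMA13G26591 was also higher in P203 than in Dongnong47 in mock leaves. At 96 HAI it had 6.25, 4.75 and 3.79 CPM in infested P203 and 1.25, 1.1 and 1.42 CPM in mock P203 (1.95 ± 0.34, adjusted p = 0.0418, edgeR). These did not overlap, as was the case for 35.3% of all loci tested there. In P746 it had 6.36, 3.12 and 1.4 CPM in infested and 1.22, 0.675 and 0.649 CPM in mock libraries at 96 HAI (2.09 ± 0.66, adjusted p = 0.163). In Dongnong47 at 96 HAI it had 3.46, 0.0579 and 0.486 CPM in infested and 0.355, 0.203 and 0.299 CPM in mock libraries, where the 3.46 CPM came from the library with P203-like markers. The values of P203 rest on 130, 101 and 91 counts in infested and 32, 30 and 25 counts in mock libraries.

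In Dongnong47 at 96 HAI the called members were GLYMA13G25590 and GLYMA13G25880. GLYMA13G25590 had 5.76, 4.11 and 2.83 CPM in infested and 1.22, 0.448 and 0.487 CPM in mock Dongnong47 (2.56 ± 0.56, adjusted p = 0.0444, edgeR). The groups were separate, as were those of 36.5% of all loci tested and 17.7% of members tested in this comparison. The highest infested value, 5.76 CPM, was that of replicate 1, the library with P203-like markers. The infested values were near the 3.61, 4.03 and 4.51 CPM of mock Dongnong47 at 48 HAI. In P203 the log2 fold change at 96 HAI was 1.35 (adjusted p = 0.137) and in P746 it was 1.37 (adjusted p = 0.199).

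GLYMA13G25880 had 1.27, 5.67 and 10.1 CPM in infested Dongnong47 and 0.118, 0.488 and 0.15 CPM in mock Dongnong47 at 96 HAI (4.45 ± 1.0, adjusted p = 0.0493, edgeR). The lowest infested value was that of the library with P203-like markers. In the same genotype the mock libraries of 48 HAI had 3.2, 4.16 and 6.67 CPM, higher than all 3 mock libraries of 96 HAI. P203 and P746 moved the same way at 96 HAI without a call, with 0.817, 1.36 and 2.16 CPM in infested P203 and 0.117, 0.257 and 0.113 CPM in mock P203 (3.07, adjusted p = 0.0502), and with 1.79, 2.91 and 0.757 CPM in infested P746 and 0.271, 0.159 and 0.108 CPM in mock P746 (3.32, adjusted p = 0.0594).

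These 4 calls rest on few libraries. With the replicate number as a block 0 members were called in P203 and 0 in Dongnong47 at 96 HAI, as were 0% of all loci in both. With no filter on low counts 0 members were called in either, where 0.868% of all loci in P203 and 5.41% in Dongnong47 were called. In Dongnong47 the replicates of 96 HAI deviated together (correlations 0.334, 0.104 and 0.241), so the block is apt there and the calls do not stand under it. Since it called 0% of all loci, this loss is not particular to the members. Leaving out 1 library left 0 or 1 call in P203 (1 without mock replicate 3) and 0 to 2 calls in Dongnong47 (2 without mock replicate 1, 1 without infested replicate 1). DESeq2 called 9 members in each of the 2 genotypes, at the shares given above.

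At 96 HAI the treatment cannot be told apart from how the libraries were processed. Loci with names of the form that StringTie gives to assembled transcripts (MSTRG) were also listed. At 96 HAI a median share of 0.0158 of these names was common to a mock and an infested library. It was 0.664 among mock and 0.526 among infested libraries of 96 HAI, and 0.606 and 0.519 between treatments at 24 and 48 HAI. Between infested libraries of 96 HAI and libraries of 48 HAI it was 0.515. A change of scaling to totals of chromosomes 1 to 13 shifted the median of all loci at 96 HAI by 0.33 on the log2 scale in P203, -0.29 in Dongnong47 and -0.19 in P746, and by 0.50 in Dongnong47 at 48 HAI, where 5 members were then called (8.2%, all loci 12.6%). GLYMA13G26150 and GLYMA13G26591 were still called in P203 on that scale, and neither GLYMA13G25590 nor GLYMA13G25880 was called in Dongnong47.

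Whether the response to infestation differed between a resistant genotype and Dongnong47 was tested as an interaction over 12 libraries. With edgeR 0 members were called in any of the 6 interactions, of 63 to 69 tested, where 0.0441%, 0.0822% and 0.173% of all loci were called for P203 at 24, 48 and 96 HAI and 0.0136%, 0.0112% and 0.173% for P746. An unadjusted p under 0.05 was found for 1, 3 and 6 members in P203 and for 5, 5 and 0 members in P746 at 24, 48 and 96 HAI, against 2.91%, 11.6% and 14.3% of all loci for P203 and 7.04%, 7.03% and 4.27% for P746. DESeq2 called 0, 2 and 3 members for P203 (0%, 2.86% and 4.11% of those with an adjusted p, all loci 0.738%, 4.61% and 5.89%) and 0 at each time for P746. The lowest adjusted p of any member over the 6 tests was 0.251 with edgeR.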

How the data were processed

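Caged leaf areas of 3 soybean genotypes were sequenced in 54 libraries. By the study's methods reads were mapped with HISAT2, counted per gene with StringTie, given as TPM with RSEM and tested with DESeq2, while the submitters' processing notes name CASAVA 1.8 and Bowtie. Each library has 1 deposited file, in which the authors give an estimated count for each gene, with no normalization found in the values. Which program wrote them, and whether strand was used, is not given in the sources used here, and 18.0% to 23.3% of the values per library were not whole. The identifiers are of an older style than the named genome build, so no coordinates are given.

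Values were joined by identifier (a locus missing from a library was taken as 0, and a line without identifier in 7 libraries was left out) and rounded to whole numbers. Comparisons used edgeR 4.0.16 in R 4.3.3 (TMM, loci kept by filterByExpr at min.count 10 and min.total.count 15, quasi-likelihood F test, p adjusted by Benjamini-Hochberg over all loci kept). A call needed an adjusted p under 0.05 and a change of 1 or more on the log2 scale. Genotype fits over several time points had time as a term. Standard errors were computed back from each fold change and its F statistic. Members were checked against the RefSeq table by identifier. DESeq2 1.42.0 was an alternative, with RLE scaling, totals of chromosomes 1 to 13, loci of chromosomes 1 to 13 alone, no filter, adjusted p alone, single time points, the replicate number as a block, and fits with 1 library removed at a time. Fits without doubtful libraries of P746, DESeq2 on chromosomes 1 to 13, other CPM scales and blocks in infested genotype fits were chosen after seeing the data. Figures were drawn with Python 3.11.15 and matplotlib 3.10.9. The edgeR and DESeq2 tests were checked on simulated data for a mock genotype comparison and an infestation comparison only. Interactions, fits with the replicate block and fits of P746 were not checked in this way.

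The members, lists and rules were chosen with earlier results of these data known. Named were the 12 largest calls of each mock genotype fit, the 5 largest of each infestation fit, the 8 members of highest mean mock CPM, members next to the identifiers left out, members at under 0.1 CPM in all mock libraries of 1 genotype and over 1 CPM in all of another (0 found) and any interaction call (0 found). GLYMA13G26450, GLYMA13G25920, GLYMA13G26250, GLYMA13G26280, GLYMA13G26190, GLYMA13G26320, GLYMA13G25990, GLYMA13G25470, GLYMA13G25900 and the members of infested genotype fits fall outside this and were named after their values were seen.

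Whether replicate numbers pair libraries was judged from how same-numbered libraries deviated from their group means. The correlations of these deviations exceeded 0.1 for all 3 numbers in 2 of 15 genotype comparisons at single time points (P746 against Dongnong47, mock at 48 HAI and infested at 24 HAI) and in 2 of 9 infestation comparisons (Dongnong47 at 24 HAI and 96 HAI), from the data alone, and libraries were treated as unpaired in the tests reported.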

Additional observations from a re-analysis of the deposited data

How the results depend on the processing

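Counts of called members are given here for each comparison whose count moved by more than 1.5 times, with the share of all loci called by the same fit in brackets. With DESeq2 in place of edgeR, the count was 7 (2.46%) for mock P746 against Dongnong47 at 24 HAI, also 7 (2%) on chromosomes 1 to 13 alone, an alternative added after seeing the data, 18 (5.72%) at 48 and 96 HAI, 1 (1.9%) for mock P746 against P203 at 24 HAI and 13 (5.96%) for infested P746 against Dongnong47 at 24 HAI. For infestation DESeq2 gave 9 (18.3%) in P203 at 96 HAI, 5 (6.31%) and 11 (14.6%) in P746 at 24 and 96 HAI, and 1 (3.19%), 2 (11.7%) and 9 (20.9%) in Dongnong47 at 24, 48 and 96 HAI, and for the interactions of P203 it gave 2 (4.61%) at 48 HAI and 3 (5.89%) at 96 HAI. Time points alone gave 0 (0.236%), 7 (3.39%) and 2 (0.594%) for mock P203, 3 (0.802%) for mock P746 at 96 HAI, and 3 (1.16%), 1 (0.568%) and 0 (2.56%) for infested P203, each against Dongnong47 and in the order of time. All 3 time points together gave 13 (1.76%) for mock P746 and 0 (0%) for infested P746.

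Loci of chromosomes 1 to 13 alone gave 6 (7.13%, against 9.38% of members) in P203 at 96 HAI. They gave 1 (9.23%) and 0 (1.68%) in Dongnong47 at 48 and 96 HAI. Totals of chromosomes 1 to 13 gave 0 (0.364%) for mock P746 at 24 HAI, and 5 (12.6%) and 0 (9.72%) in Dongnong47 at 48 and 96 HAI. No filter on low counts gave 0 in P203 (0.868%) and in Dongnong47 (5.41%) at 96 HAI. Without doubtful libraries, alternatives added after seeing the data, infested P746 against Dongnong47 gave 0 (0%) at 24 HAI, where 2 were left out and 1 P746 library remained, and 5 (0.577%) at 48 and 96 HAI, where 4 were left out.

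The replicate block gave 9 (1.34%) for mock P203 against Dongnong47, where 13 were called without it, 0 (0%) for mock P746 at 24 HAI and 7 (0.795%) at 48 and 96 HAI, 6 (0.916%) for infested P203, 0 (0%) for infested P746 at 24 HAI, and 0 (0%) in P203 and in Dongnong47 infested at 96 HAI. Where the block called 0% of all loci, the loss says nothing particular of the members. The block changed no other count of the genotype and infestation comparisons, and the interactions were not fitted with it.

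With 1 library left out the count ran from 10 to 14 for mock P203, 0 to 0 for mock P746 at 24 HAI and 6 to 10 at 48 and 96 HAI, 0 to 1 in P203 at 96 HAI, 0 to 1 in P746 at 96 HAI (1 without mock replicate 1), and 0 to 1 (1 without infested replicate 3) and 0 to 2 in Dongnong47 at 48 and 96 HAI. It stayed at 0 in the other infestation fits, the interactions and mock P746 against P203. Infested genotype fits were run without the doubtful libraries only.

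Of 781 values of named members under alternatives, 780 kept their direction and 154 lost the call, and the 1 that reversed was GLYMA13G26030 at 96 HAI alone (0.25, a member not called in mock libraries). Most of these members were named for being called, and most alternatives refit all or part of the same libraries. A kept direction was therefore likely beforehand and is not independent support. With 3 libraries per group the smallest differences that can be called are set by replicate spread, and 26 of 92 members did not pass the filter on low counts in the mock comparison of P203, among them 7 with under 10 counts over all libraries and 2 with over 300 counts in 1 library.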
